A study of Mus musculus with 106 samples.

Results

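The mouse genome tables of this study list 44 collagen genes, taken as every symbol made of Col, a number, the letter a and a number, out of 19169 gene symbols present in all 4 tables of mRNA read counts. They fall into 11 fibrillar, 6 basement membrane, 6 beaded filament, 9 fibril associated (FACIT), 3 network forming, 4 transmembrane, 2 multiplexin and 3 anchoring or other collagens. The study compared tissues of wild type male C57BL/6J mice, 8 weeks old at the start, after housing at 10 °C for 2 weeks (reached in steps of 5 days each, at 18 °C and then 14 °C) or at 34 °C for 4 weeks, each against mice kept at 22 °C in the same experiment. The 10 °C experiment covered interscapular brown fat (iBAT), inguinal subcutaneous fat (ingSAT), perigonadal visceral fat (pgVAT), ileum, liver, spleen, brain, hypothalamus, quadriceps, bone marrow and spinal cord, while the tissues analysed here from the 34 °C experiment were quadriceps, brain, liver, ileum and iBAT. Groups had 3 libraries each, apart from 6 for bone marrow, 5 for spinal cord and, in the 10 °C experiment, 2 brain libraries at 22 °C. Most libraries pooled the tissue of 2 mice, while bone marrow and spinal cord libraries came from single mice. For the iBAT of the 34 °C experiment the study's own descriptions differ, naming pools in one place and mostly single mice in another. Every p-value here sets a difference against the spread between libraries. Wherever libraries pooled mice, that is a spread between pools and not between single mice. The mice of the 10 °C and 34 °C experiments came from different vendors, and apart from quadriceps their labelled ages differed. Most of their libraries were made at different sites with different kits. Temperature and experiment therefore cannot be told apart when levels are set across them.

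Collagens are the main structural proteins outside cells, built from chains wound around each other into a long helix. Fibroblasts make most of the fibrillar types I, III and V that give tissue its tensile strength. Type IV forms the sheet-like network of basement membranes around adipocytes, muscle fibres and vessels, and type VI forms beaded filaments just outside it. Fat holds every adipocyte in such a shell, which has to be remodelled when cells shrink, grow or change type. After translation the chains are hydroxylated and folded in the endoplasmic reticulum, secreted, trimmed at their ends and crosslinked by lysyl oxidases, and in the end cut by metalloproteinases and cathepsins.

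At 22 °C the tissues differed in which collagen mRNA was most abundant, as read from CPM, the usual count of a gene relative to all counts of its library, after TMM scaling, per kilobase of exon sequence. In ingSAT the level of Col3a1 (the type III chain) was 740.2 ± 478 CPM per kb (SD, n = 3), ahead of Col1a1 at 357 ± 306 and Col4a1 at 321 ± 173. These spreads are wide because 1 of the 3 libraries was far lower than the others, and the order of the latter pair lies within them. In iBAT of the 10 °C experiment Col4a1 led at 108 ± 33.3, followed by Col3a1 at 92.9 ± 12.9 and Col4a2 at 61.7 ± 20.5 CPM per kb, and the first pair overlapped between libraries. In pgVAT the levels were 169 ± 23.8 for Col4a1, 161 ± 45.3 for Col3a1 and 89 ± 12.1 for Col4a2. By this measure a type IV chain was among the 3 most abundant collagens of each fat depot, but in ingSAT that order depended on the gene length used.

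Liver stood apart in this description, since 1 collagen exceeded all others there. Col18a1, whose protein sits in basement membranes and releases endostatin, was at 188 ± 15.9 CPM per kb in the 10 °C experiment and 186 ± 11.5 in the 34 °C experiment (n = 3 each), while the next in order were Col14a1 (11.9 ± 2.24) in the former and Col5a3 (13.6 ± 2.96) in the latter. In the 10 °C experiment, quadriceps was led by Col3a1 (59.2 ± 20.2) and Col1a1 (56.2 ± 29), then Col4a1 (36.6 ± 10.2), and ileum by Col3a1 (44.1 ± 12.1), Col6a1 (27.7 ± 6.09) and Col4a1 (20.3 ± 5.49). In spleen Col4a1 (55 ± 5.52) was followed by Col14a1 (39.2 ± 2.5) and Col4a2 (28.8 ± 2.72). The central nervous system had other leading members. In brain these were Col25a1 (7.2 ± 0.16, n = 2), a membrane collagen of neurons, Col4a1 (6.83 ± 0.0257) and Col9a3 (6.54 ± 0.304), in hypothalamus Col4a2 (19.5 ± 1.31), Col25a1 (16.9 ± 0.595) and Col4a1 (14.6 ± 0.229), and in spinal cord Col11a2 (13.9 ± 1.93), Col4a2 (13.2 ± 0.995) and Col16a1 (12.6 ± 0.818, n = 5). Bone marrow had the lowest top levels, 5.91 ± 3.31 for Col1a2, 5.67 ± 2.8 for Col6a1 and 5.35 ± 0.523 for Col5a1 (n = 6), which did not differ beyond their spread. With the length of the longest coding transcript in place of the exon sum, Col3a1 ranked first in iBAT and pgVAT, and in ingSAT Col3a1, Col1a2 and Col1a1 led, with Col4a1 at rank 4.

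**Figure D1:**
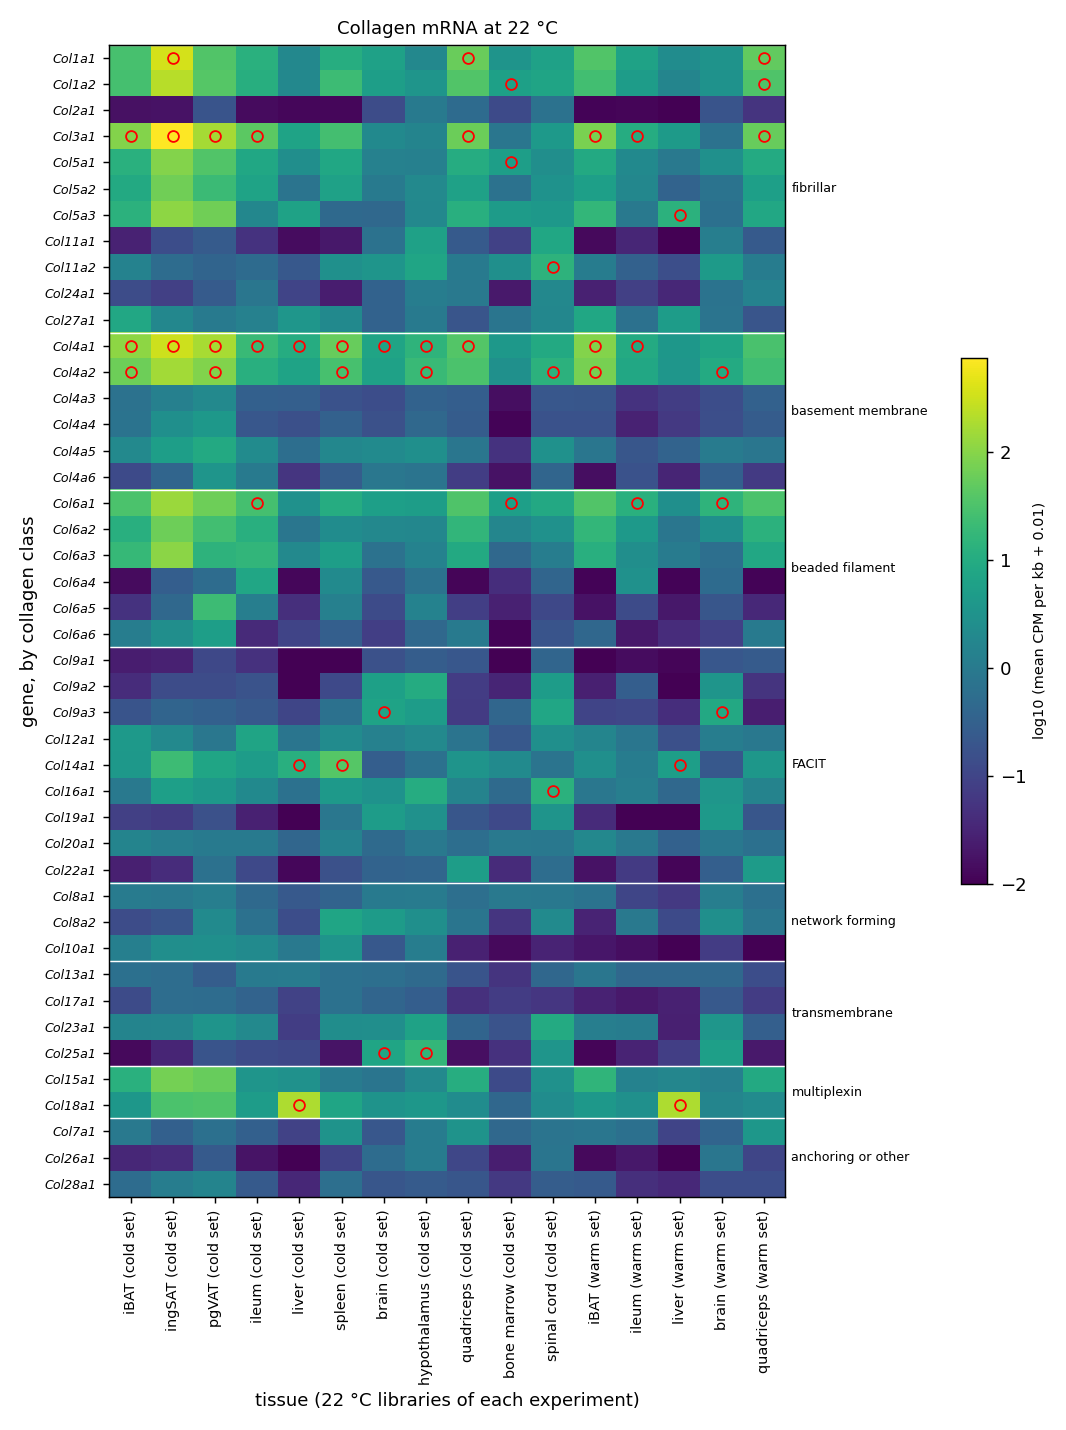
Level of each of the 44 collagen mRNAs (rows, by class) at 22 °C in each tissue and experiment (columns), as the mean CPM per kb of exon sequence on a log10 scale with 0.01 added. Red circles mark the 3 highest members of a column, and the liver columns show the level of Col18a1 far above the rest.

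The promoters of 4 abundant members are printed here because the type IV pair Col4a1 and Col4a2 lies head to head and because Col3a1 and Col1a2 are abundant fibrillar genes with a window in the table used. The sequences are from RefSeq on GRCm38.p6, read 5′ to 3′ on the strand of the gene, from 250 bases before to 50 after the annotated start, and capitals mark CCAAT or its reverse ATTGG. The Col4a1 window is chr8:11312777-11313076 on the minus strand, the Col4a2 window chr8:11312555-11312854 on the plus strand, the Col3a1 window chr1:45311288-45311587 on the plus strand and the Col1a2 window chr6:4505368-4505667 on the plus strand.
Col4a1: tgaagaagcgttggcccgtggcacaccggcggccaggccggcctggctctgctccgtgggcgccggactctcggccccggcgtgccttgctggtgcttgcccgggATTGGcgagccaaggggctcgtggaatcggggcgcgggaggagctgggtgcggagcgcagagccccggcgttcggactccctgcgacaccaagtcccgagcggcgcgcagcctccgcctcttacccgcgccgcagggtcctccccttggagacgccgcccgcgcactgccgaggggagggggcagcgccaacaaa
Col4a2: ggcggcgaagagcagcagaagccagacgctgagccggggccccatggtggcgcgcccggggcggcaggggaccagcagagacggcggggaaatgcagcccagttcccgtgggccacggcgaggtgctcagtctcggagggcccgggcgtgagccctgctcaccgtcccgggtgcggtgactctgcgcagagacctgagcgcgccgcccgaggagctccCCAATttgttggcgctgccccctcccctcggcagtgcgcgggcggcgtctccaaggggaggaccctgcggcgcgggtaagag
Col3a1: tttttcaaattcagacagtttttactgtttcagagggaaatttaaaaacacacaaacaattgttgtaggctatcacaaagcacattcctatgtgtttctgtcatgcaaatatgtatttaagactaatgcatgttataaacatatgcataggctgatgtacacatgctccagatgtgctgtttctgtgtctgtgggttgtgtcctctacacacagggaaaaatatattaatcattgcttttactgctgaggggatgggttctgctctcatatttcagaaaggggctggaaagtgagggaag
Col1a2: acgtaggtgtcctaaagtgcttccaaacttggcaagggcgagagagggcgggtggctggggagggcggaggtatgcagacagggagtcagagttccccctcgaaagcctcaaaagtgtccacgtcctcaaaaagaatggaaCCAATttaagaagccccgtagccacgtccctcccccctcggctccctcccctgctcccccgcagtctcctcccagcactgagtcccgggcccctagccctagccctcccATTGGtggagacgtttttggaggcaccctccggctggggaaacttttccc
The starts of Col4a1 and Col4a2 lie 21 bases apart on opposite strands, and their windows share 78 bases. Both windows are rich in G and C (74% and 73.7%), while that of Col3a1 holds 37.7% and that of Col1a2 61%. A CCAAT on either strand was found in 13 of the 38 windows available for 35 members (34.2%), against 37.4% of all 32851 promoter windows, the GC box GGGCGG in 23 (60.5%, against 35.7%), and TATAAA in 5 (13.2%, against 13.6%), each counted on both strands. These are matches of letters, not binding sites.

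Changes were tested with the quasi-likelihood F-test of edgeR in each tissue separately, and calls rest on the limits the study used, an unadjusted p of 0.05 or less together with a fold over 1.5, with the Benjamini-Hochberg adjusted p over all genes tested given beside it. Of the 44 members, 17 were abundant enough (average log2 CPM above 0) to be tested in all 16 comparisons and none was untested throughout. In the 533 pairs of gene and comparison tested, 60 calls were made, on 36 members. They were unevenly spread, with 26 in ingSAT at 10 °C, 6 in iBAT at 10 °C, 5 in iBAT at 34 °C, 5 in pgVAT and at most 3 in each other comparison. Over all genes tested, the share called ranged between comparisons from 0.193% (brain at 34 °C) to 19.4% (iBAT at 34 °C). A share pooled over the comparisons is not given here. The share of a library's counts on the 44 members ranged in ingSAT at 22 °C from 0.717% to 3.26%, and at 10 °C from 0.467% to 0.724%. The libraries held between 4262403 and 62880248 counts each.

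**Figure D2:**
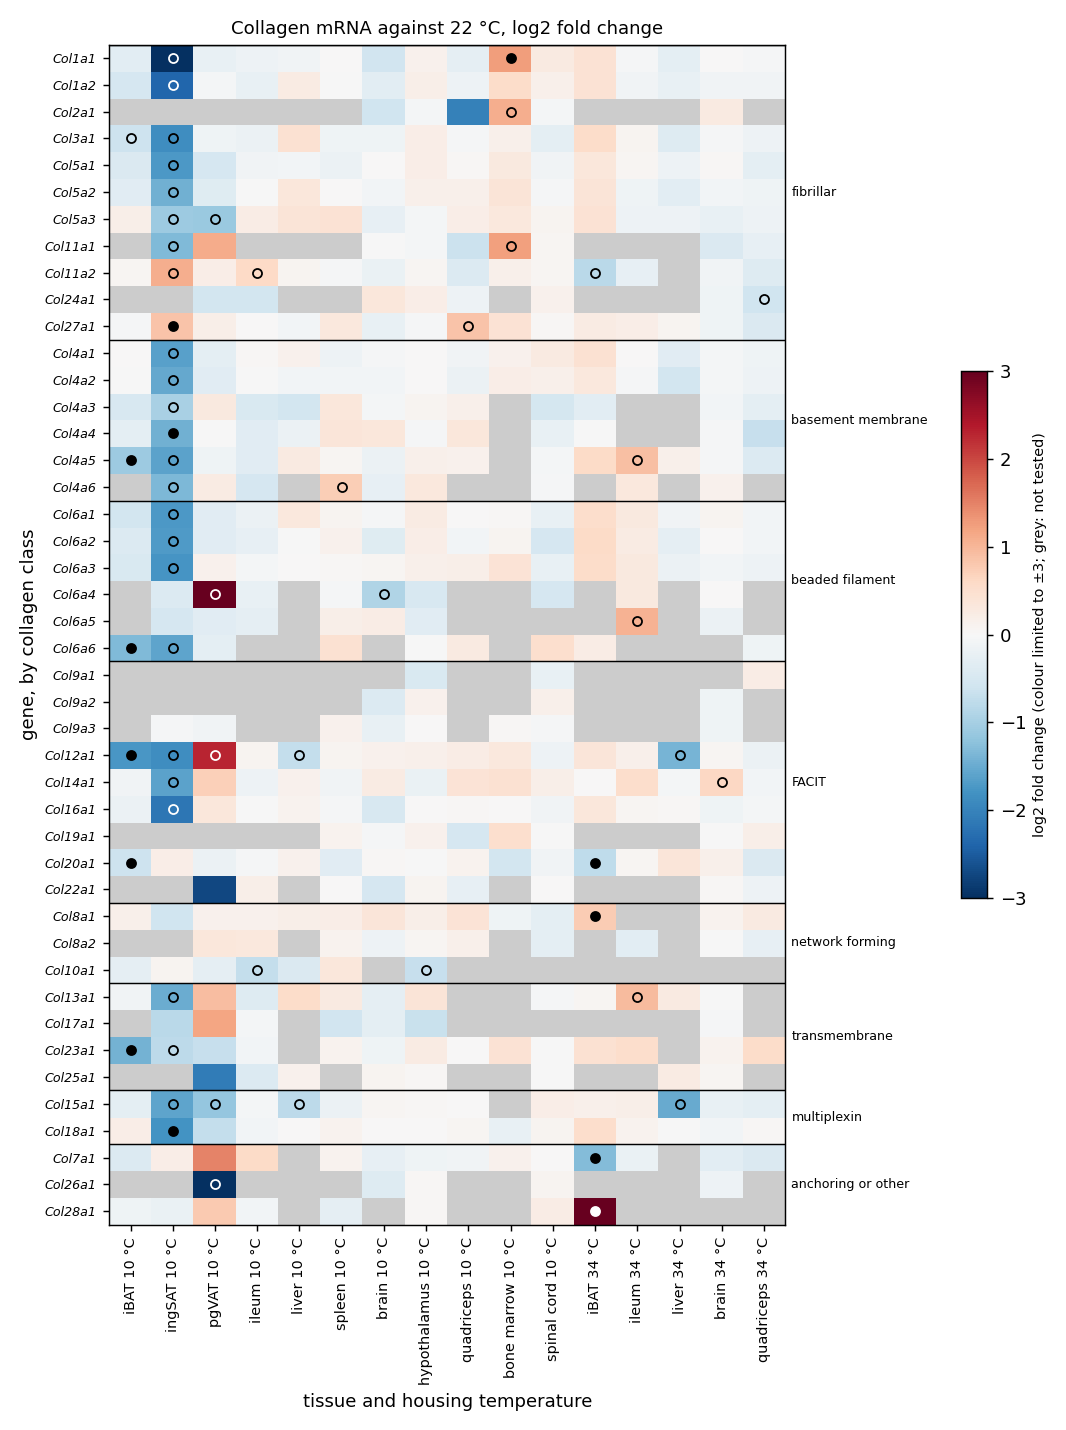
Log2 fold change of each collagen mRNA (rows, by class) at 10 °C or 34 °C against 22 °C of the same tissue and experiment (columns), with colours limited to ±3 and grey for genes too low to test. Circles mark calls (p at most 0.05 and fold over 1.5), filled where the adjusted p is under 0.05, and the ingSAT column holds 24 of the calls lower at 10 °C.

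**Figure D3:**
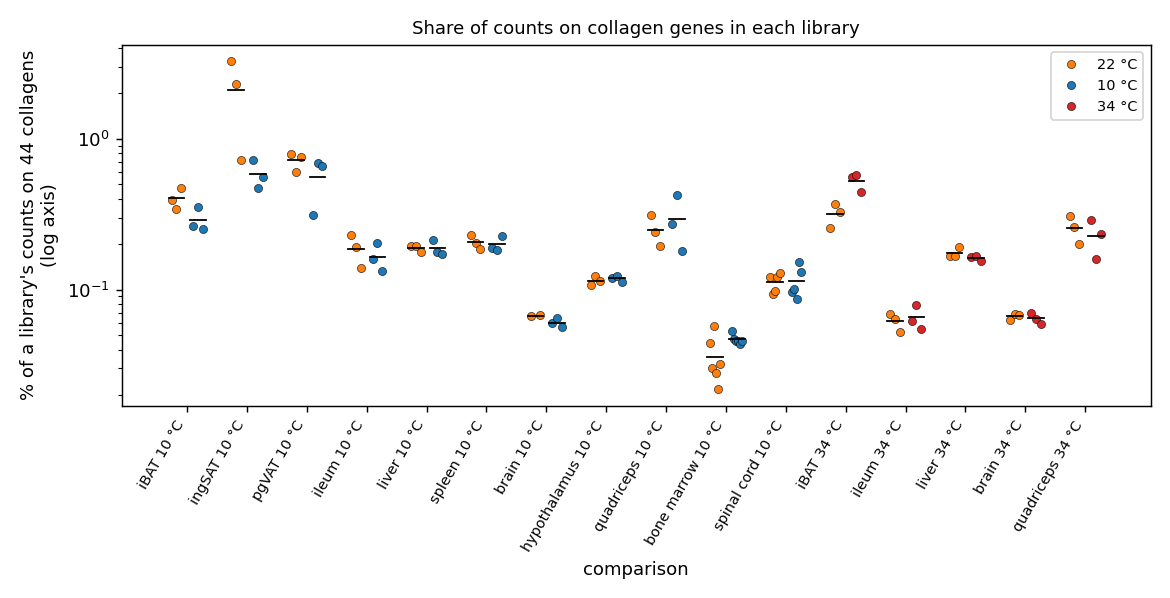
Percent of each library's counts that fell on the 44 collagen genes (log axis), with 1 point per library and a bar at the group mean. In ingSAT 1 library at 22 °C (0.717%) lies among the 10 °C libraries, and in iBAT all 34 °C libraries lie above all of their 22 °C libraries.

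In ingSAT, 24 of the 35 tested members were called lower and 2 higher at 10 °C, where 16.4% of all 13977 genes tested were called in either direction, 9.27% lower and 7.11% higher. The median log2 fold change was -1.44 over the members and -0.01 over all genes. The calls ran through nearly every class. All 6 type IV chains, both multiplexins, 7 of 9 fibrillar, 4 of 6 beaded filament, 3 of 5 FACIT and 2 of 3 transmembrane members were called lower. Neither of the 2 network forming members tested was called. In these bulk samples, fewer cells of a type and less RNA per cell cannot be told apart.

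The most abundant members showed both the size of the change and its uncertainty. Col3a1 was at 11722, 7701 and 2375 CPM in the 3 libraries at 22 °C and at 2668, 1425 and 1920.4 at 10 °C (log2 fold change -1.86 ± 0.57 SE, adjusted p = 0.0906). Col1a1, the major chain of type I, was at 4327, 2379 and 317 CPM at 22 °C and at 338, 183 and 234 at 10 °C (-3.22 ± 0.84, adjusted p = 0.0635), and its partner chain Col1a2 at 4804, 2956 and 619.7 against 731, 392 and 484 (-2.38 ± 0.68, adjusted p = 0.079). In each of the 3 genes the first pair of 22 °C libraries was well above all 10 °C libraries, while 22 °C replicate 3 was within their range.

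The type IV pair followed the same order of libraries. Col4a1 was at 3356, 2899 and 921 CPM at 22 °C and at 1061, 565 and 686 at 10 °C (-1.63 ± 0.49, adjusted p = 0.0885), and Col4a2 at 1422, 1329 and 377 against 483, 264 and 326 (-1.54 ± 0.50, adjusted p = 0.103). Since these genes overlap head to head on opposite strands and the strand setting of the counting is not given in the sources used here, reads in the shared stretch may be assigned to either. Col6a1 was at 920.1, 662 and 250.1 CPM against 243, 145 and 164 (-1.73 ± 0.46, adjusted p = 0.0666), with no overlap between groups, and Col15a1, a multiplexin of the basement membrane zone, at 638, 574 and 166 against 199.7, 127 and 131 (-1.59 ± 0.48, adjusted p = 0.0903).

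In 3 members the adjusted p was under 0.05 with a fold over 1.5, as in 6.7% of all genes tested. Col18a1 (ENSMUSG00000001435, GRCm38 chromosome 10, 77052178 to 77166548, minus strand) was at 326, 196 and 129.8 CPM at 22 °C and fell to 78.7, 51.6 and 58.8 at 10 °C (-1.79 ± 0.35, adjusted p = 0.0297). Its annotation overlaps Slc19a1 on the opposite strand, whose mean CPM by library size was 24 at 22 °C and 30.1 at 10 °C. Col4a4, which with Col4a3 and Col4a5 forms the type IV network of mature kidney and other specialised membranes, fell from 35.6, 32.5 and 15.7 to 12.7, 8.41 and 9.73 CPM (-1.44 ± 0.33, adjusted p = 0.0464). Col27a1, a fibrillar collagen of cartilage, rose from 29.5, 20.1 and 20.9 to 34.3, 45.6 and 46.8 CPM (0.85 ± 0.20, adjusted p = 0.048). The groups did not overlap in any of these 3 genes. The other member called higher was Col11a2 (4.58, 2.56 and 3.5 CPM at 22 °C, 4.22, 10.3 and 8.11 at 10 °C, 1.09 ± 0.38, adjusted p = 0.123). Over the 35 members, 8 had all 10 °C libraries below all 22 °C libraries and 1 the reverse, a state that 32.8% of all genes tested reached in either direction.

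**Figure D4:**
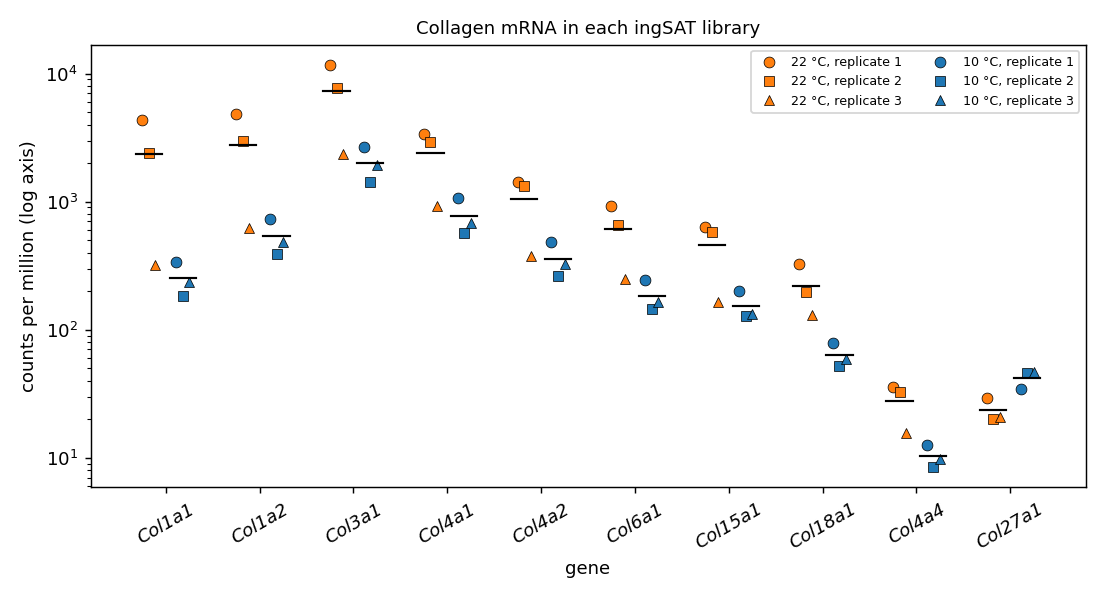
CPM (log axis) of 10 collagen mRNAs in each ingSAT library at 22 °C (orange) and 10 °C (blue), with a bar at each group mean and marker shape giving the replicate number. In 22 °C replicate 3 (orange triangles) Col1a1 lay at 317 CPM, within the 10 °C range, whereas Col27a1 lay below all 10 °C libraries.

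Since 22 °C replicate 3 decided how firm these calls were, the comparison was repeated without it. Then 26 members were called, where 25.2% of all genes were, and 25 of the 26 were among those called with all libraries. Of the 26, 24 had an adjusted p under 0.05, 23 of these lower, and the median log2 fold change over the members was -1.76. The share of all genes at that adjusted limit is not given here. Since 22 °C replicate 3 was singled out by its collagen levels, the fit without it is no independent support for the calls. Without 22 °C replicate 1 or without 10 °C replicate 2 there were 16 calls each, against 12.6% and 13.6% of all genes, and 0 had an adjusted p under 0.05. In the fit without 22 °C replicate 3, Col1a1 fell by 3.70 on the log2 scale (adjusted p = 0.00479) and Col15a1 fell by 1.95 (adjusted p = 0.00656), and 3516 genes were called in all, against 2290 with the library. In 22 °C replicate 3 Ucp1, the uncoupling protein of thermogenic fat, was at 2.51 CPM, beside 15.5 and 6.82 in the other 22 °C libraries. At 10 °C Ucp1 was at 1119, 1590.1 and 1272 CPM. Why 22 °C replicate 3 differed in its collagens was not tested.

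Markers of other cells also moved with the libraries. The summed level of 7 endothelial markers was 949, 853 and 362 CPM at 22 °C and 544, 481 and 456 at 10 °C, and that of 6 mural markers 849, 799 and 459 against 619.7, 418 and 477. The 8 fibroblast markers summed to 3189, 3215 and 3123 CPM at 22 °C, with replicate 3 beside the others, and to 3101, 1764 and 2055 at 10 °C. Of these, 6 of 8 fibroblast markers were called lower (median log2 fold change -0.76), as were 2 of 6 mural markers (-0.99) and 1 of 7 endothelial markers (-0.48). All 6 brown adipocyte markers were called higher, with a median of 3.32. Skeletal muscle markers summed to 3122, 3117 and 1261 against 1382, 31.4 and 1879. None of the genes in these lists was at 0 in all libraries of a group, and their part in the result was not tested.

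Genes that make, trim and hold collagen were called lower in ingSAT as well, and of the 9 lists compared none had a member called higher. Of 19 tested genes of folding and modification 9 were called lower, among them Crtap (-0.99 ± 0.22, adjusted p = 0.0439), P4hb (-0.83, adjusted p = 0.0603) and P3h1 (-0.89, adjusted p = 0.0677), parts of the prolyl hydroxylase machinery. Adamts2, which removes the N-terminal propeptide, fell by 1.53 on the log2 scale (adjusted p = 0.0368) and was 1 of 4 called lower of 7 genes of procollagen cleavage. Of 5 crosslinking enzymes 4 were called lower, led by Loxl4 (-1.21, adjusted p = 0.0378). Of 14 proteins that bind collagen fibrils 8 were called lower, with Prelp (-1.88 ± 0.19, adjusted p = 0.00529), Thbs2 (-1.82, adjusted p = 0.0153) and Bgn (-1.94, adjusted p = 0.0304) at the smallest p. Of 14 other basement membrane proteins 12 were called lower, such as the laminin chain Lamb1 (-1.42 ± 0.31, adjusted p = 0.0403). Breakdown enzymes were called lower in 4 of 7, their TIMP inhibitors in 3 of 4, collagen receptors in 2 of 8 and the TGF beta pathway in 3 of 12, the last with Tgfb3 (-1.01, adjusted p = 0.0376).

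In iBAT at 10 °C, 6 of 29 tested members were called lower and none higher, where 13.2% of all 12793 genes tested were called and 6.96% were called lower, and 5 of the 6 had an adjusted p under 0.05, against 3.97% of all genes. The median was -0.31 over the members and -0.01 over all genes, and 24 of the 29 had a fold change below 1. Here the calls fell mostly on members of low abundance. Col23a1, a transmembrane collagen that can be shed, fell from 7.16, 9.43 and 10.2 CPM to 3.52, 3.62 and 2.87 (-1.43 ± 0.20, adjusted p = 0.00334). Col4a5 on the X chromosome fell from 11.5, 15.4 and 12.9 to 6.78, 6.42 and 5.61 CPM (-1.08 ± 0.17, adjusted p = 0.00503). Col6a6, a chain of type VI that can take the place of the third common one, fell from 10.4, 10 and 11.3 to 3.62, 5.88 and 3.31 CPM (-1.32 ± 0.22, adjusted p = 0.00795). All 3 genes had groups far apart compared with the spread within them.

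Col12a1, a FACIT that coats type I fibrils, was at 38.6, 49.7 and 109 CPM at 22 °C and at 15, 27.3 and 17 at 10 °C (-1.75 ± 0.38, adjusted p = 0.0206). The highest 22 °C library was well above the others, but each of them was above all 10 °C libraries. Col20a1, another FACIT, fell from 8.77, 7.93 and 6.97 to 5, 5.33 and 4.97 CPM (-0.62 ± 0.17, adjusted p = 0.0427), and Col3a1 from 1023, 773 and 938 to 573, 722 and 469 (-0.63 ± 0.19, adjusted p = 0.0638). Over the 29 members, 11 had all 10 °C libraries lower and 1 higher, against 33.1% of all genes in either direction.

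The abundant type I and type IV chains of iBAT gave no call. Col1a1 was at 183, 132 and 253 CPM at 22 °C and at 142, 218 and 98.9 at 10 °C (-0.31 ± 0.30), Col4a1 at 618, 721 and 1090.1 against 553, 1146 and 739 (0.00 ± 0.29), and Col4a2 at 297, 369 and 559.8 against 290.1, 545 and 379 (-0.01 ± 0.28). Their groups overlapped widely. Col1a2 stood at -0.50 ± 0.23 (adjusted p = 0.203), Col6a1 at -0.54 ± 0.16 (adjusted p = 0.0575), Col15a1 at -0.30 ± 0.13 (adjusted p = 0.178) and Col18a1 at 0.19 ± 0.13 (adjusted p = 0.386). With scaling by library size only, the median of all genes moved from -0.01 to -0.18 and 11 members were called lower, none higher, against 15.5% of all genes in either direction, and without 10 °C replicate 2 there were 10 calls, against 13.6%. Of the skeletal muscle markers 7 of 8 were called lower, and they summed to between 6906 and 9673 CPM at 22 °C and 2706 and 5613 at 10 °C without overlap. The 5 hepatocyte markers summed to between 48.2 and 87.3 CPM at 22 °C and between 0.127 and 0.82 at 10 °C, and all 5 were called lower. The 8 epididymis markers summed to 0.0769, 0 and 0 CPM at 22 °C, where 7 of them were at 0 in every library, and to 4.31, 4.1 and 46.9 at 10 °C, with all 5 that were tested called higher. Of 6 brown adipocyte markers 3 were called higher and 1 lower. The part of these lists in the results was not tested.

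Enzymes that act on collagen moved in both directions in iBAT at 10 °C. Lox, which crosslinks fibrils, rose (0.66 ± 0.16, adjusted p = 0.0349), and P4ha1 and P4ha2, the catalytic subunits of prolyl 4-hydroxylase, were called higher (1.19 ± 0.33, adjusted p = 0.0522, and 0.64 ± 0.18, adjusted p = 0.0568). P3h4 (-0.80 ± 0.20, adjusted p = 0.0327), the matrix glycoprotein Tnc (-1.50 ± 0.27, adjusted p = 0.0101) and the metalloproteinase inhibitor Timp4 (-0.74 ± 0.13, adjusted p = 0.00834) fell. In counts, folding and modification had 2 higher and 1 lower of 19, crosslinking 1 higher of 5, fibril binding proteins 2 lower of 13, other basement membrane proteins 2 lower of 14, procollagen cleavage 1 lower of 7, inhibitors 1 lower of 3, the TGF beta pathway 1 lower of 12, and breakdown and receptors none of 7 and 8.

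In iBAT at 34 °C the members lay on the other side of 0. Of 28 tested, 2 were called higher and 3 lower, where 19.4% of all 12318 genes tested were called (11.9% higher and 7.56% lower), and 23 had a fold change above 1. The median was 0.37 over the members and 0.01 over all genes. The largest change was in Col28a1 (ENSMUSG00000068794, GRCm38 chromosome 6, 7997808 to 8192617, minus strand), a collagen known from the nerve sheath, which rose from 0.666, 0.709 and 1.99 CPM at 22 °C to 9.26, 9.87 and 9.78 at 34 °C, 8.47-fold (3.08 ± 0.42, adjusted p = 0.00338). The 5 Schwann cell markers summed to 131, 157 and 122 CPM at 22 °C and 145, 162 and 146 at 34 °C, ranges that overlap. Col8a1, a network forming chain made by vessel wall cells, rose from 6.03, 5.76 and 4.79 to 9.59, 8.75 and 9.7 CPM (0.76 ± 0.16, adjusted p = 0.0124). Col7a1, which forms anchoring fibrils, fell from 11.2, 8.06 and 5.43 to 3.93, 3.06 and 2.95 CPM (-1.31 ± 0.29, adjusted p = 0.0158). Col20a1 fell from 7.4, 12.9 and 8.84 to 5.78, 4.9 and 6.54 CPM (-0.76 ± 0.24, adjusted p = 0.0476), and Col11a2 was called lower (-0.82 ± 0.29, adjusted p = 0.0733). Of these 5 genes only Col11a2 had overlapping groups, and the other 4 had an adjusted p under 0.05, against 15.7% of all genes.

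The abundant chains of iBAT were higher at 34 °C by less than the fold limit. Col3a1 was at 509, 916 and 875 CPM at 22 °C and 1133, 1221 and 1032 at 34 °C (0.56 ± 0.22, adjusted p = 0.0896), Col6a1 at 115, 185 and 158 against 211, 249 and 204 (0.53 ± 0.18, adjusted p = 0.0586), and Col4a1 at 616, 753 and 658 against 1008, 1054 and 737 (0.47 ± 0.16, adjusted p = 0.0618). The first pair of genes had no overlap between groups, and Col4a1 overlapped by 1 library of each group. Together the members took 0.255%, 0.366% and 0.327% of counts at 22 °C and 0.558%, 0.571% and 0.444% at 34 °C. Over the 28 members, 9 had all 34 °C libraries higher and 2 lower, where 48.4% of all genes tested were apart in either direction.

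How many of these passed depended on the scaling and on 1 library. With library size only, 18 members were called, 17 higher and 1 lower, 17 of them with adjusted p under 0.05, against 28.3% of all genes called, and the median of all genes moved from 0.01 to 0.30. Without 22 °C replicate 2, 11 members were called, against 22.4% of all genes, and 7 of them had an adjusted p under 0.05. The share of all genes at that adjusted limit is not given here for either fit. In 22 °C replicate 2 skeletal muscle markers summed to 6114 CPM, beside 3.99 and 10.1 in the other 22 °C libraries. At 34 °C these markers summed to 4868, 1319 and 1443 CPM. Brown adipocyte markers summed to 14557, 10746 and 12102 CPM at 22 °C and 5857, 7243 and 6709 at 34 °C, endothelial markers to 1047, 848 and 806 against 1409, 1147 and 1091, and fibroblast markers to 399, 448 and 533 against 693, 514 and 673. The part of these shifts in the result was not tested.

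Among the collagen-related lists in iBAT at 34 °C, Tnc rose (2.31 ± 0.16, adjusted p = 0.000713), as did the fibril binding proteins Prelp (1.06 ± 0.12, adjusted p = 0.00182) and Fmod (1.41 ± 0.31, adjusted p = 0.0149), 4 of 14 in that list being called higher and none lower. Agrn (0.97 ± 0.12, adjusted p = 0.00235) and Nid2 (0.71 ± 0.19, adjusted p = 0.0288) were among the 3 called higher of 14 other basement membrane proteins. Adamts2 (1.02 ± 0.15, adjusted p = 0.00459) was 1 higher of 5 in procollagen cleavage, Ctsk (0.80 ± 0.20, adjusted p = 0.0231) 1 higher of 7 in breakdown, and Timp3 (0.86 ± 0.19, adjusted p = 0.016) and Timp4 (0.72 ± 0.18, adjusted p = 0.024) 2 higher of 4 inhibitors. The receptors Tgfbr2 (0.70 ± 0.11, adjusted p = 0.00602) and Tgfbr3 (0.68 ± 0.14, adjusted p = 0.0141) rose within 12 genes of the TGF beta pathway. Loxl1 fell (-1.05 ± 0.25, adjusted p = 0.0206), 1 of 4 crosslinking enzymes, and of 18 genes of folding and modification and 7 receptors none was called.

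The effects of the 2 temperatures in iBAT were compared in 1 model with 4 groups. The 10 °C effect minus the 34 °C effect differed from 0 at adjusted p under 0.05 in 12 of 29 members, all 12 with a negative difference, against 30% of all 11803 genes tested. Among the members that passed, the largest differences were in Col28a1 (-3.24 ± 0.49, adjusted p = 0.000644), Col12a1 (-2.12 ± 0.48, adjusted p = 0.00648), Col23a1 (-1.91 ± 0.28, adjusted p = 0.000544), Col4a5 (-1.67 ± 0.25, adjusted p = 0.000645) and Col6a6 (-1.58 ± 0.45, adjusted p = 0.0202). They were followed by Col3a1 (-1.22 ± 0.30), Col6a1 (-1.10 ± 0.25), Col6a3 (-1.03 ± 0.30), Col6a2 (-1.01 ± 0.29), Col1a2 (-0.96 ± 0.34), Col5a1 (-0.80 ± 0.26) and Col5a2 (-0.75 ± 0.22). Thus the 3 common type VI chains and 4 fibrillar chains were on this list, while Col1a1 and Col4a1 were not. The difference of Col1a1 was -0.76 ± 0.42 (adjusted p = 0.19), close in size to those of Col5a1 and Col5a2. With a library left out, Col1a2 (adjusted p = 0.0494) passed in 3 of 12 fits and Col5a1 (adjusted p = 0.0387) in 5 of 12. For Col28a1 the difference lay with 34 °C, since at 10 °C it was at 2.53, 2.26 and 2.29 CPM beside 2.23, 2.85 and 2.67 at 22 °C (-0.14 ± 0.22). For Col4a5 and Col23a1, called lower at 10 °C, the 34 °C changes were 0.57 ± 0.20 and 0.46 ± 0.19 (adjusted p = 0.0649 and 0.105) and gave no call. With single libraries left out, 6 to 13 such members were found, 6 of them without 10 °C replicate 3 of the 10 °C experiment. The share of all genes in those fits is not given here. Each temperature belongs to another experiment with its own vendor, site, kit and labelled age, and the difference and the experiment cannot be told apart.

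**Figure D5:**
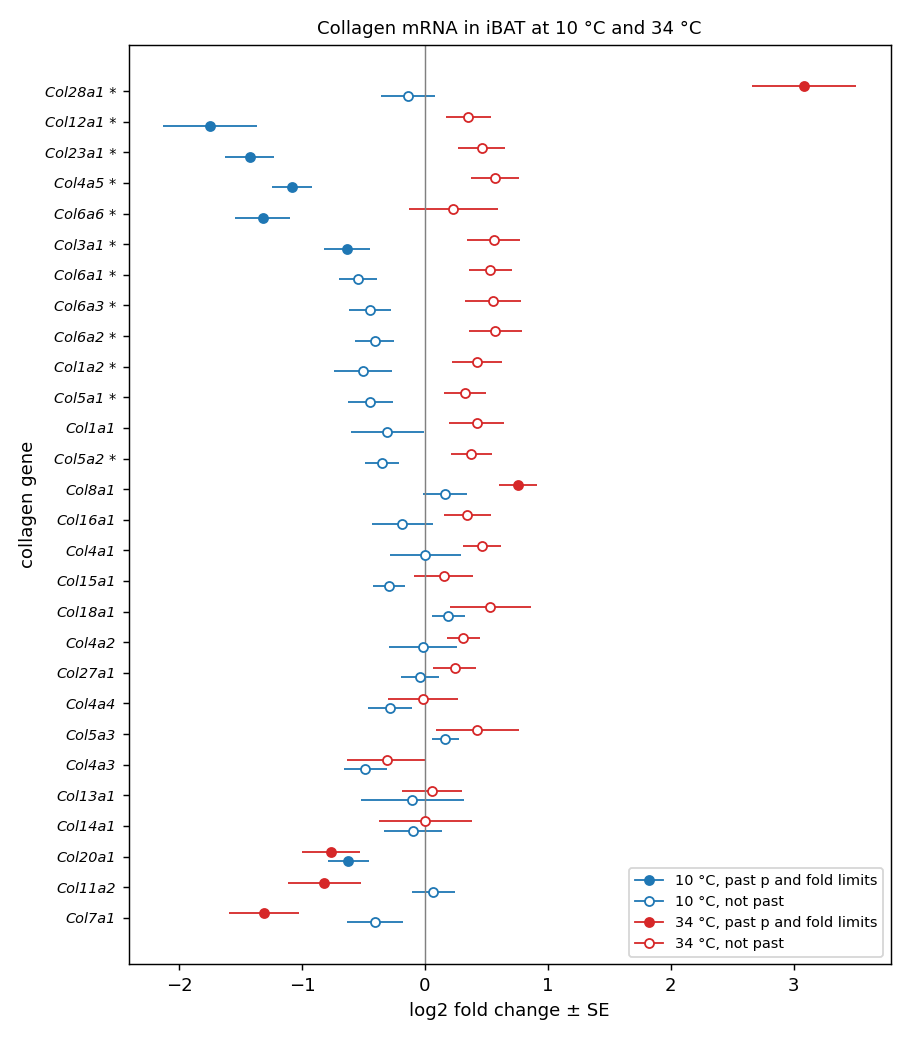
Log2 fold change ± SE of the collagen mRNAs tested in both iBAT comparisons, at 10 °C (blue) and at 34 °C (red), each against 22 °C of its own experiment, with filled points past the p and fold limits. Asterisks mark the members whose effects differ at adjusted p under 0.05, all with the blue point to the left of the red one.

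In pgVAT, 3 of 40 tested members were called lower and 2 higher at 10 °C, where 8.17% of all 14863 genes tested were called (3.17% lower and 5.01% higher), and no gene of the table reached an adjusted p under 0.05. The members' median was -0.13, beside 0.07 over all genes. Col15a1 had the smallest p, at 306, 293 and 429 CPM at 22 °C and 111, 201 and 147 at 10 °C (-1.16 ± 0.33, adjusted p = 0.586), and Col5a3 was next (425, 434 and 455 against 163, 278 and 164, -1.12 ± 0.32). Both had groups that did not overlap, a state whose share over all genes is not given here for pgVAT. Col26a1 was called lower from low levels (3.82, 0.972 and 0.813 against 0.307, 0 and 0.212). The members called higher, Col6a4 (1.74, 2.08 and 9.14 CPM against 206, 1.33 and 179) and Col12a1 (12.5, 14 and 11.2 against 54.4, 7.61 and 123), were high in 10 °C replicates 1 and 3 and low in replicate 2. Those 2 libraries also carried epididymis markers, whose 8 genes summed to 28703, 3.84 and 26755 CPM at 10 °C and to 2627, 896 and 785 at 22 °C, and whose part in the result was not tested. Without 10 °C replicate 2, the library with few such markers, 10 members were called, against 23.3% of all genes. Of these, 5 had an adjusted p under 0.05 (Col12a1, Col15a1, Col5a3, Col6a4 and Col7a1). The share of all genes at that adjusted limit is not given here. Type I, III and IV chains varied widely among the 10 °C libraries, Col3a1 from 714 to 2222 CPM and Col4a1 from 446 to 1614.

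Whether the depots differed in their response was tested by the interaction of tissue and temperature, in fits that take the libraries of different depots as independent. Between ingSAT and iBAT, Col18a1 was the member that passed, with a 10 °C effect lower by 1.91 ± 0.38 on the log2 scale in ingSAT (adjusted p = 0.0206), 1 of 34 tested, against 3.61% of all genes. At an unadjusted p under 0.05 there were 17 members, against 21.5% of all genes. Without ingSAT 22 °C replicate 3, 17 of 33 members passed at an adjusted p under 0.05, against 16.3% of all genes. Col1a1, Col3a1 and Col4a1 were among them, but that library was singled out by its collagen levels. Without other single libraries the count that passed was as low as 0. Between ingSAT and pgVAT, 0 of 38 members passed with edgeR, as did 0% of all genes, with 9 members at an unadjusted p under 0.05 (9.92% of all genes) and 3 passing without pgVAT 10 °C replicate 2. Between iBAT and pgVAT, 0 of 37 passed, against 0.0837% of all genes, with 4 at an unadjusted p under 0.05 (12.1% of all genes).

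In liver the same 2 members were called lower at both temperatures. At 10 °C these were 2 of 26 tested, where 3.2% of all 12028 genes were called and 2.44% were called lower. Col12a1 was at 12.7, 11.4 and 11 CPM at 22 °C and 7.06, 8.55 and 5.81 at 10 °C (-0.72 ± 0.15, adjusted p = 0.0959), and Col15a1 at 20.8, 20.2 and 13.6 against 11.7, 10.7 and 9.43 (-0.78 ± 0.17, adjusted p = 0.0972). At 34 °C they were 2 of 21 tested, where 3.39% of all 11179 genes were called and 1.65% were called lower. There Col15a1 was at 8.25, 11.3 and 13 CPM at 22 °C and 2.98, 5.42 and 2.99 at 34 °C (-1.51 ± 0.27, adjusted p = 0.0741) and Col12a1 at 1.34, 2.26 and 2.96 against 1.11, 0.979 and 0.367 (-1.40 ± 0.43, adjusted p = 0.264). The groups did not overlap in any of the 4 comparisons, and none of them reached an adjusted p under 0.05. For liver the share of all genes without overlap is not given here. Col18a1, the most abundant collagen of liver, gave no call, at 1444, 1299.9 and 1225 CPM against 1496, 1249 and 1276 at 10 °C (0.02 ± 0.10) and at 1282, 1236 and 1393 against 1299, 1348 and 1255 at 34 °C (0.00 ± 0.08). The 5 hepatocyte markers summed higher in all treated libraries (92819 to 97212 CPM at 10 °C against 67304 to 74869.9, and 126913 to 134323 at 34 °C against 89084 to 101095). At 10 °C the fibroblast markers (216.6 to 221.3 against 137.7 to 214.1) and the endothelial markers (175.8 to 197.6 against 104.4 to 175.5) were also apart, and the part of these lists was not tested.

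In bone marrow 3 of 25 tested members were called higher at 10 °C and none lower, where 1.26% of all 12525 genes were called and 0.647% were called higher. All 3 are fibrillar. Col1a1 ranged at 22 °C from 9.84 to 62 CPM with a median of 13.7, and at 10 °C from 33.7 to 88.2 with a median of 37.9 (1.26 ± 0.42, n = 6 each, edgeR adjusted p = 0.0485). It was the member called with an adjusted p under 0.05, against 0.391% of all genes. A single 22 °C library, at 62 CPM, lay within the 10 °C range, and the other 5 were at or below 20.4. Col11a1 ranged from 0.122 to 2.42 CPM at 22 °C (median 0.935) and from 1.09 to 5.51 at 10 °C (median 1.78, 1.24 ± 0.50, adjusted p = 0.0993), and Col2a1, the chain of cartilage, from 0.122 to 2.36 (median 0.962) and from 0.934 to 4.58 (median 2.09, 1.08 ± 0.45, adjusted p = 0.109). Both overlapped between groups. Col5a1 had a small change with little spread, from a median of 44.4 to 56.4 CPM (0.30 ± 0.07, adjusted p = 0.00855), under the fold limit. Under that limit too were Col27a1, from a median of 9.71 to 13.5 CPM (0.43 ± 0.10, adjusted p = 0.0118), and the FACIT Col20a1, which ranged from 3.92 to 6.05 CPM at 22 °C and from 2.9 to 3.64 at 10 °C without overlap (-0.56 ± 0.12, adjusted p = 0.00733). All 10 fibrillar members tested had a fold change above 1, with a class median of 0.41, and over all 25 members the median was 0.30, beside 0.01 over all genes.

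A few genes of the related lists were called higher with them. Ctsk, the collagen-cutting cathepsin of osteoclasts, rose from a mean of 9.43 to 25.2 CPM (1.41 ± 0.30, adjusted p = 0.00687), Mmp13 from 8.43 to 17 (1.01 ± 0.32, adjusted p = 0.0394) and Postn from 1.67 to 2.72 (0.70 ± 0.23, adjusted p = 0.0468). They were 2 of 8 breakdown genes and 1 of 12 fibril binding proteins, and Lox was called higher among 4 crosslinking enzymes (0.81 ± 0.34, adjusted p = 0.116). In each of these genes, Lox included, the 10 °C and 22 °C groups overlapped. The 7 osteoblast or cartilage markers summed to between 42.4 and 106 CPM at 22 °C and between 61.5 and 103 at 10 °C, ranges that overlap, with Acan at 0 in every 22 °C library, and the 6 immune markers to between 1963 and 2818 at 22 °C and between 1726 and 2088 at 10 °C. Their part in the result was not tested.

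The other tissues held few calls, none with an adjusted p under 0.05. In ileum at 10 °C, 1 of 36 members was called higher and 1 lower, where 2.73% of all genes were called. Col10a1 was at 6.34, 7.02 and 6.45 CPM at 22 °C and 4.13, 3.43 and 4.51 at 10 °C (-0.71 ± 0.15, adjusted p = 0.11), without overlap. Col10a1 lies inside Nt5dc1 on the opposite strand, which was itself at a mean of 25.3 CPM by library size at 22 °C and 20.7 at 10 °C, and reads of this pair cannot be told apart without the strand. In ileum at 34 °C, 3 of 27 were called higher, where 2.91% of all genes were called and 1.48% were called higher, with Col13a1 first (2.24, 1.7 and 2.05 against 3.14, 4.08 and 4.29 CPM, 0.94 ± 0.21, adjusted p = 0.602), then Col6a5 and Col4a5. All 3 had groups without overlap, a state whose share over all genes is not given here for ileum at either temperature.

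In spleen 1 of 37 members was called (background 2.71%), Col4a6 at 2.15, 2.69 and 1.57 CPM against 3.32, 2.66 and 4.87 (0.74 ± 0.30, adjusted p = 0.478). In brain at 10 °C 1 of 40 was called (0.801%), Col6a4 at 1.35 and 2.31 CPM at 22 °C against 1.45, 0.862 and 0.607 (-0.90 ± 0.34, adjusted p = 0.448), and with all 3 libraries at 22 °C, or with DESeq2, there was no call. In hypothalamus 1 of 44 was called (0.578%), Col10a1 at 3.07, 4.53 and 3.08 against 2.48, 1.76 and 2.37 CPM (-0.69 ± 0.23, adjusted p = 0.763). Of these 3 genes, only Col10a1 had groups that did not overlap. In quadriceps at 10 °C 1 of 32 was called (3.8%), Col27a1 at 1.49, 2.33 and 3.33 against 4.52, 4.94 and 3.48 CPM (0.85 ± 0.30, adjusted p = 0.441). The groups did not overlap. For hypothalamus and quadriceps the share of all genes without overlap is not given here. Markers of other tissues were high in single quadriceps libraries. The 4 pancreas markers, all called lower, summed to 1122, 4.93 and 0.0568 CPM at 22 °C and 0.597, 0.585 and 0.214 at 10 °C, and the 8 epididymis markers, 2 of 2 tested called higher, to 0.0949, 0 and 0.0757 against 160.0, 0.244 and 0.0178. Adipocyte markers, 5 of 6 called higher, summed to 250.5, 339.9 and 229.9 CPM against 779, 849 and 309.6, and 3 of 6 brown adipocyte markers were called higher. The part of these lists was not tested. In spinal cord edgeR called 0 of 41 members (0.271%), as did its exact test and DESeq2, and 1 had an unadjusted p under 0.05. At 34 °C, brain had 1 of 40 called (0.193%), Col14a1 at 1.33, 1.91 and 1.17 against 2.3, 2.59 and 1.82 CPM (0.61 ± 0.24, adjusted p = 0.999), and quadriceps 1 of 32 (1.23%), Col24a1 at 12.5, 9.69 and 10.1 against 9.57, 5.58 and 6.17 (-0.60 ± 0.21, adjusted p = 1). The difference of the 10 °C and 34 °C effects passed in no member in ileum (0% of all genes), liver (0.0546%), brain (0%) or quadriceps (0.483%), with 7, 6, 1 and 2 members at an unadjusted p under 0.05, against 12.3%, 13.3%, 4.73% and 13% of all genes.

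Across comparisons, Col12a1 was called most often, in 5 of 16. It was lower in iBAT, ingSAT and liver at 10 °C and in liver at 34 °C, and higher in pgVAT. Of these calls, only that in iBAT had an adjusted p under 0.05. Col15a1 was called in 4, lower in each, in ingSAT, pgVAT and both liver comparisons, and no adjusted p was under 0.05. The share of all genes called in as many comparisons is not given here. Col11a2 and Col4a5 were called in 3 comparisons each, with directions that differed between tissues. Of the 44 members, 8 were tested and never called, among them Col25a1, one of the leading collagens of brain. The share of all genes never called is not given here.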

How the data were processed

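The authors aligned mRNA reads with STAR and counted them per gene with HTSeq, and the submitters' processing notes list mm10, STAR 2.5.3a, Picard 1.141 and HTSeq 0.6p1, whereas the study's methods name other versions of STAR and HTSeq. The deposited values are raw read counts per gene and library, with no normalization and with replicates kept apart. The strand setting of the counting is not given in the sources used here. Of 21647 Ensembl identifiers in the table without symbols, 21583 were matched to a symbol. Groups came from sample titles, since the label on treatment names the same temperature for every sample. Columns of the 34 °C tables are numbered otherwise than the sample titles, so their numbers here are only names.

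Each tissue and experiment was fitted alone with edgeR 4.0.16 in R 4.3.3, using TMM scaling, genes with an average log2 CPM above 0 and the quasi-likelihood F-test. The SE beside a log2 fold change or difference is its size divided by the square root of the F statistic. It therefore restates the test and is no separate measure of precision. The study used the exact test of edgeR, which was run as an alternative. A call needed an unadjusted p of 0.05 or less and a fold over 1.5, and p-values were adjusted by Benjamini-Hochberg over all genes tested. Differences between effects were contrasts in fits of 4 groups, called at an adjusted p under 0.05. Of 106 samples, 105 libraries entered comparisons. Brain 22 °C replicate 2 was left out because the authors' own 22 °C means equal those of replicates 1 and 3, and the 6 quadriceps 22 °C libraries were split between the experiments by their column names. The other alternatives were DESeq2 1.42.0, scaling by library size only, no filter beyond a total of 1 count, adjusted p, a replicate block and 129 fits with a library left out. Of these, the 36 left-out fits for the differences between effects and the levels by longest coding transcript were chosen after seeing the data. The scripts were tested on simulated data. Levels were set per kb of the union of exons on GRCm38.

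The members and lists were chosen with earlier results of these data known. Named genes were the members called with an adjusted p under 0.05 in each comparison (the 8 smallest p if more, the called member with the smallest p if none), Col1a1, Col1a2, Col3a1, Col4a1, Col4a2, Col6a1, Col15a1 and Col18a1 as a set, the 3 highest levels per tissue, up to 3 genes of smallest p in each related list, the members called in most comparisons and those whose 10 °C and 34 °C effects differed. Other members named were chosen after their values were seen. The ingSAT and pgVAT at 34 °C were not analysed here. The values of 1 gene of the related lists are not reported here.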

Additional observations from a re-analysis of the deposited data

Results flagged for a closer look

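In bone marrow, 3 measures held a library farther from the rest of its group than Dixon's critical value of 0.625 for 6 libraries allows, out of 10 groups tested, and about 1 in 20 such groups would be picked out by chance. The share of counts on the collagen genes in 1 library at 10 °C was 0.0530% (gap over range 0.638). Col1a1 stood at 62.0 CPM in 1 library at 22 °C (0.797), the library that overlaps the 10 °C group. Col2a1 stood at 4.58 CPM in 1 library at 10 °C (0.658).

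The effects of 10 °C and 34 °C in iBAT differed, by the contrast of 4 groups in edgeR, in 12 members, with log2 differences of -3.24 for Col28a1, -2.12 for Col12a1, -1.91 for Col23a1, -1.67 for Col4a5, -1.58 for Col6a6, -1.22 for Col3a1, -1.10 for Col6a1, -1.03 for Col6a3, -1.01 for Col6a2, -0.96 for Col1a2, -0.80 for Col5a1 and -0.75 for Col5a2. The temperature and the experiment it belongs to cannot be told apart. The effect of 10 °C on Col18a1 differed between ingSAT and iBAT by -1.91.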

How the results depend on the processing

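None of the 73 results on named genes reversed in the alternatives run. Of these results, 17 kept their call in every setting run, and over all settings of the 73 results 680 of 846 were on the same side of the limits. Among the 17 was Col1a1 in bone marrow, which was run in 6 settings, none of them with a library left out. With library size only, the calls became 11 in iBAT at 10 °C, 2 in brain at 10 °C and 18 in iBAT at 34 °C, the difference between ingSAT and iBAT held 2 members, liver had 3 at each temperature, and in ileum at 10 °C the 1 higher and 1 lower became 0 higher and 2 lower. With the adjusted p, calls became 3 in ingSAT, 1 in bone marrow and 0 in pgVAT, ileum, liver, spleen, brain, hypothalamus and quadriceps at 10 °C and in ileum, liver, brain and quadriceps at 34 °C. DESeq2 gave 0 in brain at 10 °C and 2 in quadriceps at 34 °C, and the exact test gave 2 in quadriceps at each temperature. With no filter beyond 1 count, there were 2 in hypothalamus, 2 in quadriceps at 10 °C, 5 in bone marrow, 2 in brain at 34 °C and 2 in quadriceps at 34 °C. With all 3 brain libraries at 22 °C there were 0 calls, against 2.73% of all genes, and with all 6 quadriceps libraries at 22 °C 2 at 10 °C and 2 at 34 °C. For these settings and the replicate block, shares of all genes not stated beside a result are not given here.

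With single libraries left out, calls at 10 °C ranged from 5 to 10 in iBAT, 16 to 26 in ingSAT, 2 to 10 in pgVAT, 1 to 7 in ileum (7 without 10 °C replicate 2), 2 to 5 in liver (5 without 22 °C replicate 2), 0 to 1 in spleen, 0 to 5 in brain, 1 to 6 in hypothalamus (6 without 22 °C replicate 2), 0 to 2 in quadriceps and 0 to 2 in spinal cord (2 without 22 °C replicate 2). In brain at 10 °C the 5 calls came without 22 °C replicate 1, where the lone 22 °C library is assumed to vary like the others. Bone marrow was not refitted with libraries left out. At 34 °C the calls ranged from 5 to 11 in iBAT, 2 to 5 in ileum and 2 to 3 in liver. In brain at 34 °C they ranged from 0 to 1 and in quadriceps from 0 to 3. The difference of 10 °C and 34 °C effects in iBAT ranged from 6 to 13 members, that of ingSAT and iBAT from 0 to 17 and that of ingSAT and pgVAT from 0 to 3. Leaving out a library also moved the share of all genes called. In ingSAT it was 25.2% without 22 °C replicate 3 and 12.6% without 22 °C replicate 1, against 16.4%. In pgVAT it was 23.3% without 10 °C replicate 2, against 8.17%. Where no share is stated in this report for such a fit, the count is not set against all genes.

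Replicate numbers were not treated as pairs in the main fits. In no tissue did every same-numbered pair correlate above 0.1, but with so few libraries this cannot show that the samples were unpaired. With the number as a replicate block there were 2 calls in brain at 10 °C, 6 in iBAT, 22 in ingSAT and 4 in pgVAT, and the other counts were as without the block, although the 1 call in spleen was then lower instead of higher. Members near 1 CPM, such as Col26a1 in pgVAT and Col2a1 in bone marrow, rest on few reads.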
